A study of Danio rerio with 12 samples.

Results

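The genes described here encode the proteins of the cytosolic ribosome of zebrafish muscle. They were chosen by name: every gene row whose symbol begins with rpl or rps in the form used for ribosomal proteins, leaving out the rps6k kinases, which gave 85 gene identifiers of 32520 in the count tables. By symbol, 43 of these count to the large subunit, 37 to the small subunit and 4 to the stalk proteins (rplp0, rplp1, rplp2 and rplp2l). The remaining 1, rps19bp1, encodes a protein that binds a ribosomal protein and is not part of the ribosome. Whether the products of paralogues such as rpl7l1 are part of the mature ribosome was not examined. Symbols are written in lower case, and 4 of them, among them rpl5 and rps26, are carried by 2 identifiers each, so those copies are named by identifier. The rule uses names and no measured value.

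The ribosome has a small subunit that reads the messenger RNA and a large subunit that joins amino acids, and each protein is normally present in a single copy per subunit except for the stalk proteins. Vertebrate messenger RNAs for these proteins share a pyrimidine tract at the 5′ end that places their translation under the control of the kinase mTORC1, and excess unassembled protein is degraded. Zebrafish kept duplicates of several of these genes after the teleost genome duplication. In skeletal muscle, the number of ribosomes is known to rise with growth and fall with disuse.

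RNA was sequenced from extraocular muscle (EOM), the muscle that moves the eye, and from trunk muscle of 20 month old zebrafish of the AB strain. In each tissue, wild-type (WT) fish were set against desma-/-;desmb-/- fish, which carry mutations in both genes for desmin, the main intermediate filament protein of muscle. Both genotypes share the AB background, since the double mutant was generated in the line that supplied the wild types. This gave 4 groups of 3 libraries, and the series text frames the comparison as a test of why EOM resists muscular dystrophies. The series text calls the desmin loss a knock-down, whereas the sample labels give mutant alleles in all cells. The labels name myofibres as the cell type, but whole dissected muscle was extracted. How many fish went into a library, and whether the 3 libraries of a group came from different fish, is not given in the sources used here, so p-values measure the spread between these libraries, which may be technical.

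The 12 libraries held 46090609 to 74146170 reads in genes. The desmin identifier with reads, ENSDARG00000058656.6, stood at 641 ± 58.7 CPM (read counts scaled to a common library size; SD, n = 3) in WT EOM and 35.3 ± 8.31 in mutant EOM, and at 610.1 ± 56.3 in WT trunk and 32.4 ± 15.7 in mutant trunk, so every library fitted its genotype label. The second desmin identifier had 3 to 14 reads per library. The 26 skeletal muscle marker identifiers were detected in every group, with summed levels of 74262 to 86009 CPM in WT EOM, 64461 to 73532 in mutant EOM, 156886 to 197844 in WT trunk and 171827 to 222416 in mutant trunk. The 20 most abundant genes of a library made up 30.3 to 33.9% of gene reads in EOM and 44.5 to 48.3% in trunk. Over all libraries these were 31 different genes, of which 0 encode ribosomal proteins.

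Of the 85 genes, 83 had more than 50 reads in every library, from 295 reads for the lowest to 179775 for the highest. The identifiers carrying the symbols rpl26 and rpl9 had 0 to 24 reads in each library. The count tables give no gene lengths, so levels of different genes are not ranked against each other.

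As a whole, ribosomal protein genes took a larger share of reads in EOM than in trunk. Their share of gene reads was 9.42, 9.79 and 8.52% in WT EOM libraries 1 to 3 and 10.1, 10.4 and 8.68% in mutant EOM. It was 5.06, 4.88 and 4.67% in WT trunk and 5.70, 5.86 and 5.66% in mutant trunk. Every EOM library was above every trunk library, every mutant trunk library was above every WT trunk library, and the 2 EOM groups overlapped. The 95% Wilson interval of each share reached at most 0.00803 percentage points to either side, which covers counting error only, so the spread between libraries is far larger than the counting error.

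The tissue difference in these shares depended on what else the libraries contained. The mean share in WT was 1.90 times as high in EOM as in trunk. It was 1.48 times as high when the 31 most abundant genes were left out of the total, and the summed level was 1.25 times as high after TMM scaling, which sets library sizes by the bulk of genes rather than by total reads. In mutants the same 3 ratios were 1.70, 1.28 and 1.02. In trunk the ratio of mutant to WT varied less with the scale, at 1.18, 1.19 and 1.21, and in EOM it was 1.05, 1.02 and 0.982. Levels below are CPM on TMM-scaled library sizes unless stated otherwise.

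**Figure D1:**
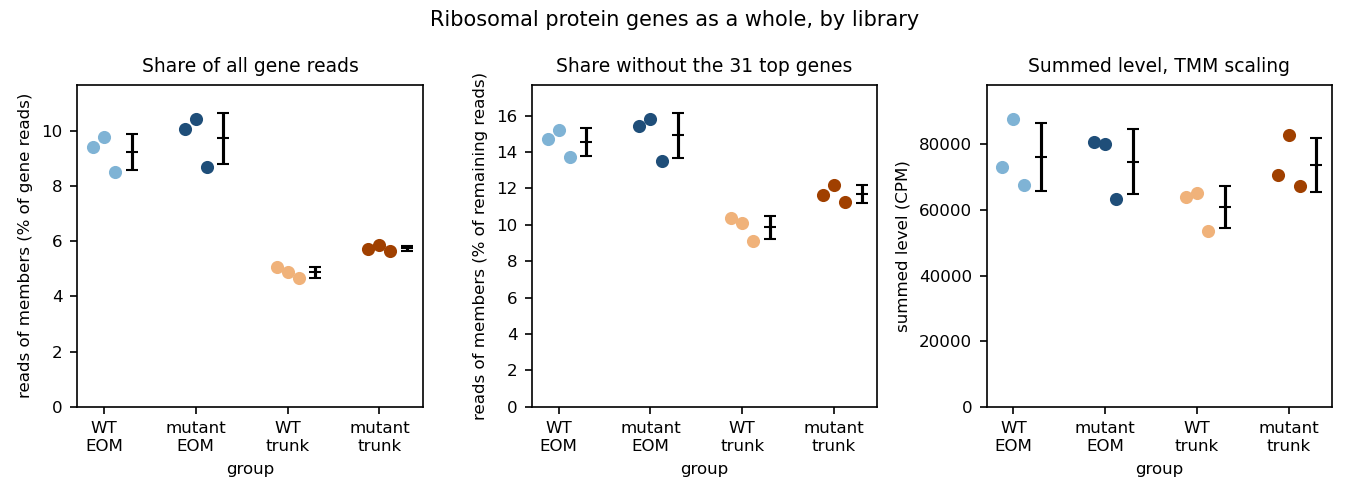
Each point is 1 library, with the mean and SD of its group (n = 3) beside it. The left axis is the percentage of gene reads from the 85 ribosomal protein genes, the middle axis the percentage after the 31 most abundant genes are left out, and the right axis the summed level in TMM-scaled CPM. The 2 tissues are furthest apart on the left and least so on the right, while mutant trunk lies above WT trunk in all 3 panels.

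On the TMM scale the genes added up to 76173 ± 10396 CPM in WT EOM, 74776 ± 9892 in mutant EOM, 60891 ± 6429 in WT trunk and 73623 ± 8209 in mutant trunk (SD, n = 3). The WT trunk libraries spanned 53515 to 65301 and the mutant trunk libraries 67387 to 82923, without overlap. In both trunk groups and in both EOM groups, a single library stood apart from the other 2 on this scale. The median gene of WT trunk library 3 was 0.42 log2 units under its own mean over all libraries, against 0.17 and 0.16 under it in WT trunk libraries 1 and 2. The median gene of mutant trunk library 2 was 0.20 above its mean, while those of mutant trunk libraries 1 and 3 were at -0.04 and -0.12. In WT EOM, library 2 stood at 0.38 against 0.08 and -0.04 for the others, and in mutant EOM, library 3 stood at -0.13 against 0.21 and 0.24.

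Most ribosomal protein genes moved with that common level. The SD over the 12 libraries of the log2 level was 0.252 for the median gene and 0.116 once each library's median over the 83 genes was subtracted. A scaling factor moves every gene of a library alike, and the same SDs were not computed for all genes. The gene that followed the common level most closely was rps20, a small subunit protein, with a remaining SD of 0.0462. Wide remaining SDs were those of rpl7l1 (0.427), rplp0 (0.417), rpl22l1 (0.340) and rps2 (0.310).

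**Figure D2:**
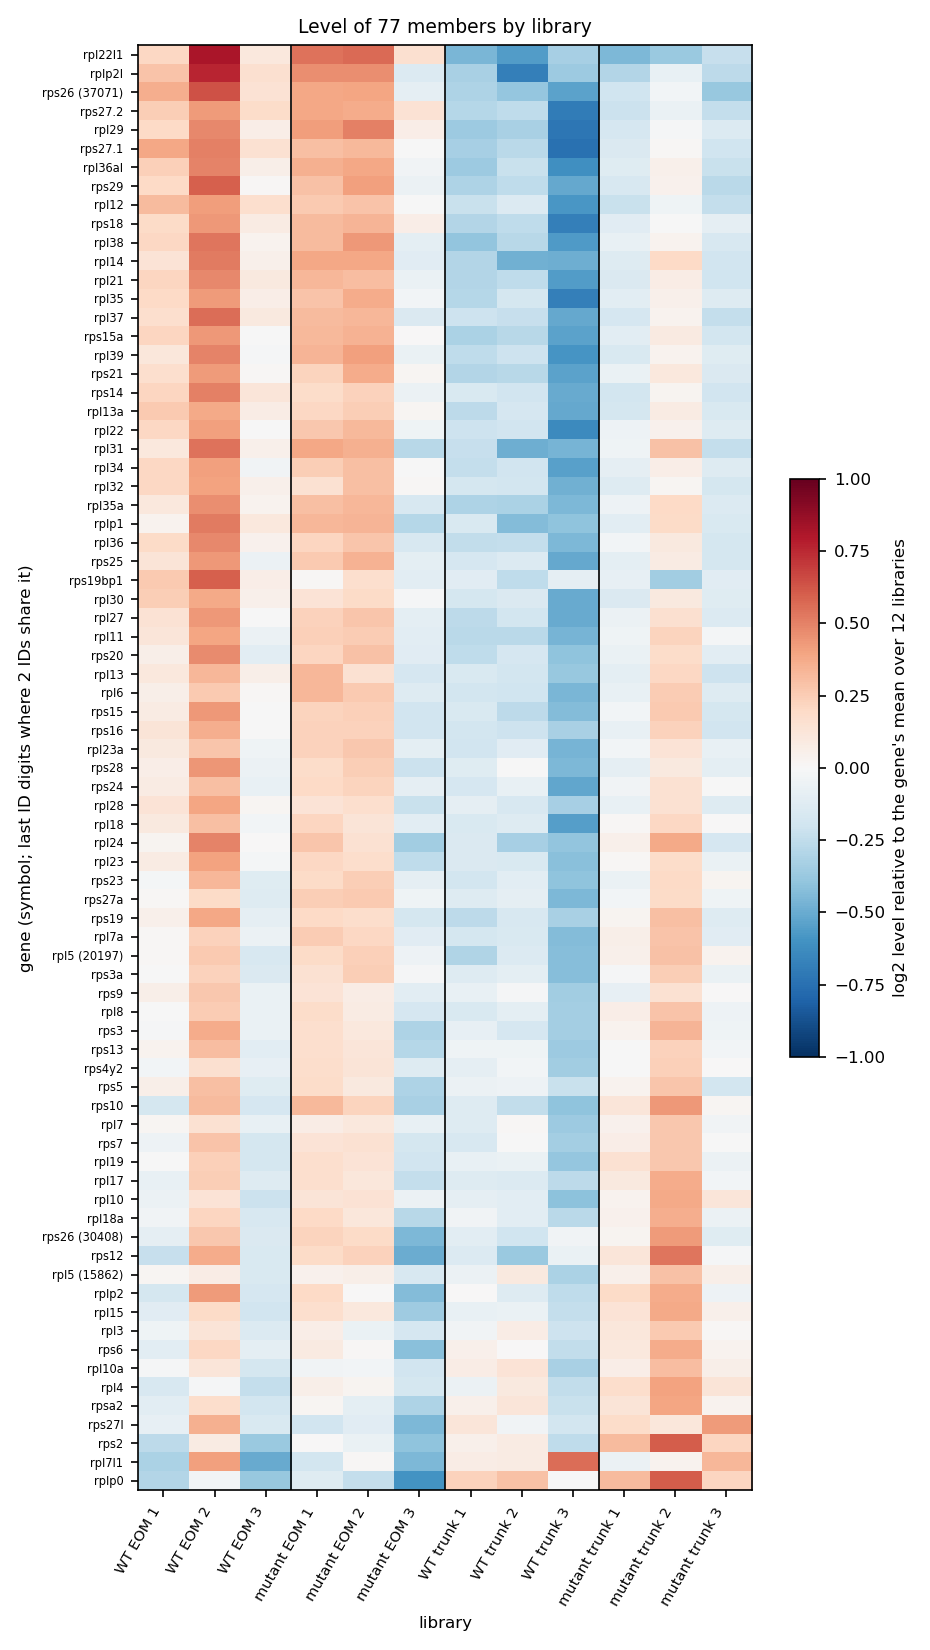
Each row is 1 gene, for 77 of the 83 with more than 50 reads in every library, each column 1 library, and colour gives the log2 level relative to the gene's mean over the 12 libraries, with the scale ending at 1 and -1. Rows are ordered by the difference between the mean of EOM and that of trunk libraries. Whole columns are darker or lighter, as in WT trunk library 3 and WT EOM library 2, and the lowest rows (rps2, rpl7l1 and rplp0) run against the rest.

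Between the muscles of WT fish, ribosomal protein genes were on balance higher in EOM. All 85 genes were tested, and 39 were higher and 1 lower in EOM at an adjusted p under 0.05 by edgeR's quasi-likelihood test with Benjamini-Hochberg adjustment over all 18430 genes tested. Of all genes tested, 48.8% were called, 25.6% higher and 23.2% lower. Above 0 lay the log2 fold changes of 78 of the 85 genes (52.8% of all genes), every EOM library was above every trunk library for 50 of them (32.3% of all genes) and below for 2 (28% of all genes). Most of these genes moved with a common level, so the counts do not come from independent genes. The median log2 fold change was 0.40 over the ribosomal protein genes and 0.06 over all genes. Under library totals alone the medians were 1.00 and 0.66, so the gap between them was 0.33 on both scales. The calls rose to 80 higher and 1 lower under library totals, where the median of all genes rose as well. The share of all genes called on that scale is not given here, so this count has no background beside it. The large subunit had 23 of 43 genes called higher and the small subunit 13 of 37, with medians of 0.41 and 0.31.

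Markers of other cell types differed between the tissues as well, in both directions. In WT the leukocyte markers summed to 611 to 645 CPM in EOM and 201 to 223 CPM in trunk, with 9 of 19 tested identifiers higher and 0 lower (25.6 and 23.2% of all genes), the fibroblast and matrix markers to 1180.5 to 1253 and 492 to 735 CPM, with 7 of 9 higher and 2 lower, and the cell cycle markers to 47.4 to 71.6 and 36.9 to 43.6 CPM, with 2 of 10 higher. The erythrocyte markers summed to 1067 to 2329 CPM in WT EOM and 361 to 479.7 CPM in WT trunk, with 4 of 5 higher, the neural and retina markers to 601 to 790.4 and 154 to 254 CPM, with 4 of 9 higher, and the skin and epithelium markers to 683 to 889 and 347 to 549 CPM, with 2 of 6 higher. The endothelium markers were lower in EOM, at 134 to 167 CPM against 298 to 311 CPM in trunk, with 0 of 4 higher and 3 lower. In bulk samples, fewer cells of a type and less RNA per cell cannot be told apart, and the part of these cells in the tissue difference of ribosomal protein genes was not tested.

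The number of calls differed between the fits that leave out 1 library. It was 24 without WT EOM library 1, 12 without WT trunk library 1, 21 without WT trunk library 2 and 15 without WT trunk library 3. Each fit has 1 library fewer, and the share of all genes called in it is not given here. The median log2 fold change lay between 0.27 and 0.47 when each library was left out in turn. Among the called ribosomal protein genes named below, rplp2l, rpl22l1, rps26 ENSDARG00000037071.8, rps27.1, rps27.2 and rpl29 passed in all 6 of these fits. The gene rpl13a passed in 3 and rplp1 in 2. For rpl11, rpl22, rpl39, rps15 and rps16 it was 1 each, and for rpl6 and rpl13 it was 0.

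The largest called rise was that of the stalk protein gene rplp2l, which stood at 242, 337 and 221 CPM in WT EOM and at 159, 123 and 154 CPM in WT trunk. All EOM libraries were above all trunk libraries, with a log2 fold change of 0.88 (SE 0.20, edgeR adjusted p = 0.0062). The gene rpl22l1, a paralogue of rpl22 that acts against it in the blood development of mouse and zebrafish, had levels of 86.2, 131.7 and 80.2 CPM in WT EOM and 54.5, 50.7 and 59.2 CPM in WT trunk. Its groups did not overlap, and its log2 fold change was 0.86 (SE 0.21, edgeR adjusted p = 0.00808), against 0.55 (SE 0.18, edgeR adjusted p = 0.0289) for rpl22 itself. The rps26 copy ENSDARG00000037071.8 encodes a small subunit protein at the messenger RNA exit channel and had levels of 333, 402 and 286 CPM in WT EOM and 209.5, 198 and 179 CPM in WT trunk. It was higher in every EOM library (log2 fold change 0.80, SE 0.17, edgeR adjusted p = 0.00393). The gene rps27.1 followed with 0.79 (SE 0.17, edgeR adjusted p = 0.00509), the large subunit gene rpl29 had 0.72 (SE 0.17, edgeR adjusted p = 0.00744), and rps27.2, the duplicate of rps27.1, reached 0.69 (SE 0.16, edgeR adjusted p = 0.00722).

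The stalk, the lateral arm that recruits elongation factors, was split in this comparison. The stalk base protein gene rplp0 stood at 1665, 2001 and 1567 CPM in WT EOM and at 2388, 2492 and 2036 CPM in WT trunk. Every trunk library was above every EOM library, but the log2 fold change of -0.40 missed the threshold (SE 0.15, edgeR adjusted p = 0.0575) and passed it by DESeq2 (adjusted p = 0.0330). The genes for its partners rplp1 (log2 fold change 0.56, edgeR adjusted p = 0.0246) and rplp2l were higher in EOM, and rplp2 stood at 652 ± 165 CPM in WT EOM and 576 ± 52.4 in WT trunk (SD, n = 3). The large subunit gene rpl12 was also on the list drawn up for the stalk. It stood at 1095, 1178 and 994 CPM in WT EOM and at 758, 802 and 590 CPM in WT trunk. Every EOM library was above every trunk library for rpl12, opposite to rplp0. For rplp0, the value with library totals was 0.20, so its direction holds only relative to the bulk of genes.

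Of 12 large subunit genes on a list drawn up for the peptide exit tunnel, 8 were called higher. This stands beside 39 of all 85 ribosomal protein genes, 25.6% of all genes and the large subunit count given above. The list includes rpl26, which had at most 14 reads in a library. The list is not complete and leaves out rpl4, at 1702 ± 137 CPM in WT EOM and 1791 ± 213 in WT trunk (SD, n = 3). The count therefore describes the listed genes and not the tunnel as a whole. Among the 8 was rpl39, with a log2 fold change of 0.56 (SE 0.18, edgeR adjusted p = 0.0292). Of the proteins that bind 5S ribosomal RNA, and in mammals restrain MDM2 when ribosome assembly fails, rpl11 was higher in EOM (0.50, SE 0.16, edgeR adjusted p = 0.0282). The 2 rpl5 identifiers were not called; ENSDARG00000020197.8 had 0.34 (edgeR adjusted p = 0.107). The gene rpl13a, whose human product is released to silence inflammatory messenger RNAs, had 0.55 (SE 0.15, edgeR adjusted p = 0.0159). The gene rps19, the gene most often mutated in human Diamond-Blackfan anaemia, had 0.38 and was not called (edgeR adjusted p = 0.0769). Of 20 identifiers counted for genes mutated in that anaemia 8 were higher and 0 lower, beside the same 39 of 85. That count takes in rpl26. It leaves out rps27.1 and rps27.2, both called higher, because the list names rps27 and no symbol in that form was found. The late-assembling subunit-joining protein gene rpl10 (0.16) and the ubiquitin fusion gene rps27a (0.25) missed the threshold. The gene rpl3, at the peptidyl transferase centre, was at 1794 ± 169 and 1748 ± 169 CPM in WT EOM and WT trunk, and rps6, the substrate of the S6 kinases, at 1174 ± 149 and 1121 ± 119 (SD, n = 3). The called genes with the smallest rises were rpl6 (0.40), rpl13 (0.41), rps16 (0.41) and rps15 (0.47).

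**Figure D3:**
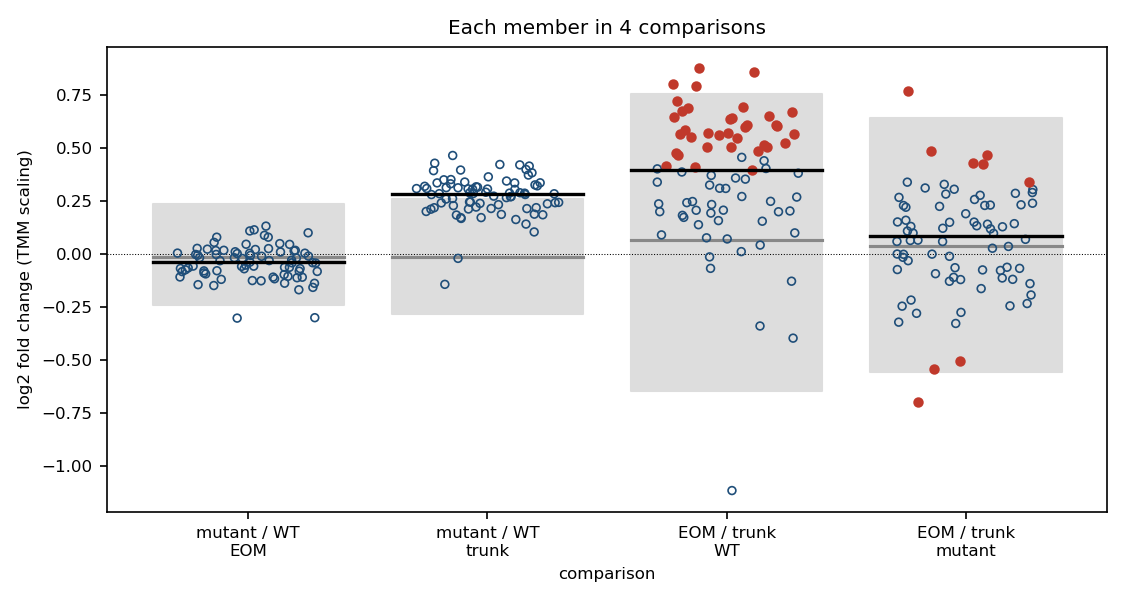
Each point is 1 of 79 ribosomal protein genes in 1 comparison, on the log2 fold change axis with TMM scaling. Filled red points passed an adjusted p under 0.05 and open points did not, black lines give the median of all ribosomal protein genes tested, and the grey line and band the median and middle 50% of all genes tested. The open point at -1.12 in the WT tissue comparison is rpl26, which had at most 14 reads in a library. In trunk the mutant to WT points form a narrow band around 0.28 with no filled point, whereas the tissue comparisons are wide.

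When libraries were scaled to the ribosomal protein genes themselves, so that the common level drops out, 10 genes departed from the others between WT EOM and WT trunk by the same edgeR test (45.6% of all genes were called on this scale). Relative to the rest, 8 were lower in EOM, among them rplp0 (log2 difference -0.80, SE 0.12, edgeR adjusted p = 0.000554), rpl7l1 (-0.79), rps2 (-0.53, SE 0.13, edgeR adjusted p = 0.00605), rpl4 (-0.46), rpsa2 (-0.41), rpl10a (-0.38) and rpl3 (-0.36). Those that were higher were rps27.1 (0.40, SE 0.14, edgeR adjusted p = 0.0409) and rps26 ENSDARG00000037071.8 (0.39, SE 0.14, edgeR adjusted p = 0.0422). Leaving out 1 library at a time left 3 to 9 departures, without the share of all genes called in these fits beside them. The count was 3 without WT EOM library 1, 5 without each of WT EOM library 3, WT trunk library 1 and WT trunk library 2, 7 without WT EOM library 2 and 9 without WT trunk library 3. The genes rplp0 and rps2 passed in all 6 of these fits, rpl4 in 5, rpl7l1 in 3, rpsa2 in 2, rpl10a in 1 and rpl3 in 0, and rps27.1 and rps26 ENSDARG00000037071.8 in 1 each. For rpl7l1 the value ranged from -0.97 to -0.51, the latter without WT trunk library 3, and it was not called without that library or without WT EOM library 1 or 3 (edgeR adjusted p up to 0.0816).

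The ratio of small to large subunit reads also differed between tissues, though little. It was 0.766 to 0.792 in WT EOM and 0.772 to 0.778 in mutant EOM, and 0.806 to 0.810 in WT trunk and 0.795 to 0.804 in mutant trunk. The 2 tissues did not overlap, and the 2 genotypes of EOM did. In trunk every mutant library was below every WT library.

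In the mutants the tissue difference of the common level was smaller on the TMM scale. Of 84 genes tested, 8 were higher and 4 lower in EOM by edgeR's quasi-likelihood test, where 53.1% of all genes tested were called, 27.4% higher and 25.7% lower. Values above 0 were found for 50 genes (51.9% of all genes), and 7 genes were higher (32.6% of all genes) and 7 lower (28.8% of all genes) in every EOM library than in every trunk library. The median log2 fold change was 0.08 beside 0.04 for all genes. With library totals these medians were 0.83 and 0.79. On that scale 79 genes were called higher and 1 lower, again without the share of all genes beside it. Mutant EOM library 3 weighed on this comparison, since without it the median was 0.19 beside 0.04 for all genes. In that fit 22 genes were called higher and 4 lower. The share of all genes called is not given here for the fits that leave out 1 library. The median lay between 0.01 and 0.19 when 1 library was left out, and its excess over the median of all genes between -0.03 and 0.15, so that excess changed sign. Without mutant EOM library 1 the count was 6, without mutant EOM library 2 it was 7, without mutant trunk library 1 it was 6 and without mutant trunk library 3 it was 7.

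The genes at the ends of the order were largely those seen in WT. The stalk base gene rplp0 stood at 1874, 1731 and 1346 CPM in mutant EOM and at 2536, 3094 and 2358 CPM in mutant trunk. It was lower in every EOM library, and here it passed the threshold (-0.70, SE 0.16, edgeR adjusted p = 0.00299). The small subunit gene rps2 (-0.54, SE 0.15, edgeR adjusted p = 0.0101) and rps27l, a paralogue of rps27 that p53 induces in human cells (-0.51, SE 0.12, edgeR adjusted p = 0.0056), were also lower. With library totals rplp0, rps2 and rps27l turned to 0.05, 0.21 and 0.23. Higher in mutant EOM were rpl22l1 (0.77, SE 0.13, edgeR adjusted p = 0.000473), rplp2l (0.49), rps27.2 (0.46), rpl29 (0.43) and rps26 ENSDARG00000037071.8 (0.43). Of these, rplp2l and rps26 ENSDARG00000037071.8 had libraries that overlapped between the tissues. The genes rplp0, rps2, rps27l, rpl22l1 and rps27.2 passed in all 6 fits that leave out 1 library. Those of rplp2l, rpl29 and rps26 ENSDARG00000037071.8 passed in 2 each.

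The order of the genes was much alike in the 2 genotypes, which share no library. Across the 83 genes with reads in every library, the WT and the mutant tissue log2 fold changes had Pearson's r of 0.954 and Spearman's rho of 0.955. Over all genes tested in both comparisons these were 0.894 and 0.885. Genes are not independent replicates, so no p-value is given.

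**Figure D4:**
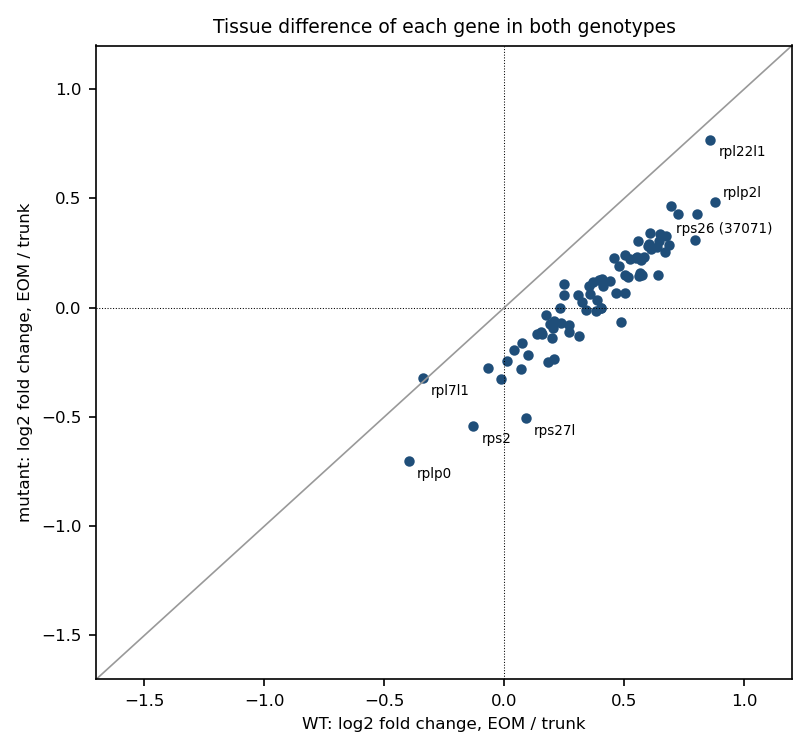
Each point is 1 gene, for 77 of the 83, with its EOM to trunk log2 fold change in WT on the horizontal axis and in mutants on the vertical axis (TMM scaling), and the grey line marks equal values. Nearly all points lie below the line by a similar amount, and rplp0, rps2 and rps27l lie at the low end.

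In trunk, the loss of desmin went with a small shift of nearly all ribosomal protein genes to higher levels, while no single gene passed the threshold. Of 83 genes tested, 80 had a log2 fold change above 0 (48.5% of all 17342 genes tested), and the median was 0.28 beside -0.01 for all genes. In 46 genes every mutant library was above every WT library, which held for 15.7% of all genes, and in 0 was every mutant library below (14.5% of all genes). Since most of these genes moved with a common level, such counts are not independent replicates of the difference in summed level. In 22 of the 83 genes the unadjusted edgeR p was under 0.05, and the share of all genes at that cut-off is not given here. At an adjusted p under 0.05 the edgeR test called 0 of the 83 genes, beside 8.4% of all genes, 4.76% higher and 3.63% lower. DESeq2 called 3 of them higher, rps10 (0.46, DESeq2 adjusted p = 0.0323), rpl5 ENSDARG00000020197.8 (0.41, DESeq2 adjusted p = 0.0369) and rpl11 (0.39, DESeq2 adjusted p = 0.0424). The share of all genes that DESeq2 called is not given here, so this count has no background beside it. The median log2 fold change lay between 0.21 and 0.33 when each library was left out in turn. Its excess over the median of all genes was 0.30 with TMM scaling and with library totals, and 0.32 with DESeq2.

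The small subunit gene rps10 had the largest value, with 463, 425 and 381 CPM in WT trunk and 551, 683 and 511 CPM in mutant trunk. Its groups did not overlap, and the log2 fold change was 0.46 (SE 0.15, edgeR adjusted p = 0.0816). The 5S-binding genes were close behind. The rpl5 copy ENSDARG00000020197.8 stood at 710.1, 797 and 653 CPM in WT trunk and at 907, 1074 and 898 CPM in mutant trunk (log2 fold change 0.42, SE 0.14, edgeR adjusted p = 0.0894). The gene rpl11 stood at 773, 774 and 675 CPM in WT trunk and at 906, 1087 and 921 CPM in mutant trunk (0.40, SE 0.14, edgeR adjusted p = 0.100). All mutant trunk libraries were above all WT trunk libraries for these 2 genes, whereas the rpl5 copy ENSDARG00000015862.12 overlapped (0.23). The gene rps2 had 0.43 (edgeR adjusted p = 0.110), rpl10 0.38, rps19 0.33, rpl22 0.29, rpl39 0.27 and rps27a 0.26, all without overlap. The values of rplp1 (0.32), rplp2 (0.31), rps6 (0.25), both rps26 copies (0.24 and 0.22), rpl13a (0.23), rplp0 (0.21) and rpl3 (0.19) came with overlapping libraries. Values below 0 were found for 3 genes, among them rps19bp1 (-0.02) and rpl7l1 (-0.14). With libraries scaled to the ribosomal protein genes, 0 of them departed from the others at an adjusted p under 0.05 (12.4% of all genes were called on that scale).

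Markers of other cell types differed between the genotypes in trunk, in both directions. The summed level of 26 leukocyte marker identifiers was 201 to 223 CPM in WT trunk and 363 to 636 CPM in mutant trunk, with 8 of 16 tested identifiers called higher and 1 lower (4.76 and 3.63% of all genes). For 9 fibroblast and matrix identifiers it was 492 to 735 and 886 to 990.3 CPM, with 2 of 9 called higher, and for 11 cell cycle identifiers 36.9 to 43.6 and 41.9 to 53.8 CPM, with 0 of 10 called. The cell cycle libraries overlapped. The endothelium markers were lower, at 298 to 311 CPM in WT trunk and 239.7 to 272 CPM in mutant trunk, with 1 of 4 called lower. Values below 0 were found for 4 of 5 erythrocyte, 6 of 8 neural and retina and 4 of 6 skin and epithelium identifiers, of which 1 in all, on the neural and retina list, was called. Of the leukocyte identifiers, 3 had no read in WT trunk and 3 none in mutant trunk. The part of these cells in the shift of ribosomal protein genes was not tested.

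In EOM, the same comparison showed no common shift. Of 84 genes tested, 26 had a log2 fold change above 0 (48% of all genes tested). The edgeR test called 0 of them, beside 3.56% of all genes tested. DESeq2 also called 0, without the share of all genes beside it. An unadjusted edgeR p under 0.05 was found for 1, and the share of all genes at that cut-off is not given here. The median was -0.04 beside -0.02 for all genes. With library totals it was 0.06, but that of all genes rose to 0.08, so its excess over all genes was -0.02 on both scales. The excess changed sign with 1 library. Without WT EOM library 2 the median was 0.09 and the excess 0.10, and without mutant EOM library 3 they were 0.06 and 0.10. The highest value was 0.13, that of rps27a, and in 0 of the 84 genes did the groups separate, against 13.4% of all genes with every mutant library higher and 11.5% with every mutant library lower. On the scale of the ribosomal protein genes, 0 departed from the others (1.09% of all genes were called). The leukocyte markers in EOM summed to 611 to 645 CPM in WT and 868 to 1102 CPM in mutants, and the fibroblast and matrix markers to 1180.5 to 1253 and 1483 to 1799 CPM, so both lists were higher in mutants of either tissue, whereas the endothelium markers summed to 154 ± 17.1 CPM (SD, n = 3) in WT EOM and 117 ± 8.17 CPM (SD, n = 3) in mutant EOM, with 1 of 4 called lower.

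The difference between the mutant effects in EOM and in trunk was tested directly over all 12 libraries. Of 85 genes, 1 had a higher mutant effect in EOM than in trunk (48.9% of all genes), with a median difference of -0.29 in log2 beside -0.01 for all genes. The edgeR test called 0 (0.0914% of all genes were called). DESeq2 called 0, without the share of all genes beside it. An unadjusted edgeR p under 0.05 was found for 1, and the share of all genes at that cut-off is not given here. The median difference lay between -0.38 and -0.18 when libraries were left out in turn. The largest value was that of rps27l. It stood at 36.2, 49.1 and 34.5 CPM in WT EOM and 33.6, 35.4 and 28.2 CPM in mutant EOM, and at 41.7, 37.5 and 33.8 CPM in WT trunk and 43.7, 41.5 and 51.6 CPM in mutant trunk. The groups overlapped in EOM and in trunk, and the difference of -0.57 was not called (SE 0.22, edgeR adjusted p = 0.438). Across the 83 genes, the mutant effects in the 2 tissues, which share no library, had Pearson's r of 0.517 and Spearman's rho of 0.415, beside 0.614 and 0.427 over all genes tested in both.

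Because the copies of a protein are counted in the same library, the share of their reads that comes from each copy does not depend on any scaling. Shares were computed for 8 pairs, which were chosen after the values above were seen, and 5 of them are described. With 3 libraries against 3, an exact permutation test cannot go below a two-sided p of 0.1. The count tables tally reads with several locations apart from the genes. Reads that fit both copies equally are therefore left out, and the shares describe only the reads that were counted.

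For rps26, rplp2 and rpl5 the share shifted between tissues in both genotypes. The rps26 copy ENSDARG00000037071.8 gave 50.02, 48.5 and 47.2% of rps26 reads in WT EOM, 45.0, 45.8 and 48.4% in mutant EOM, 38.9, 39.1 and 34.2% in WT trunk and 38.6, 34.9 and 38.0% in mutant trunk. For rplp2l, as a share of rplp2 and rplp2l, the values were 29.1 ± 1.06%, 28.6 ± 1.53%, 20.2 ± 2.50% and 19.6 ± 1.62% in the same order (SD, n = 3). The rpl5 copy ENSDARG00000020197.8 gave 44.7 ± 1.95% in WT EOM, 46.1 ± 0.633% in mutant EOM, 40.4 ± 1.30% in WT trunk and 43.6 ± 0.241% in mutant trunk. In these 3 pairs every EOM library lay on one side of every trunk library in both genotypes, so each of the exact permutation tests between tissues gave the smallest possible p of 0.1. Between genotypes, rpl5 also separated in trunk, where every mutant library was above every WT library (exact permutation p = 0.1).

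The pairs of rpl22 and rps27 did not separate the tissues in both genotypes. The gene rpl22l1 gave 10.4 to 13.4% of the reads of its pair with rpl22 in WT EOM, 11.8 to 12.3% in mutant EOM, 8.25 to 12.5% in WT trunk and 8.03 to 9.79% in mutant trunk, so the tissues separated in mutants and overlapped in WT. For the rps27 duplicates, rps27.2 gave 55.7, 56.7 and 58.6% of reads in WT EOM and 59.5, 58.8 and 60.5% in mutant EOM. In trunk it gave 58.8, 58.3 and 58.8% in WT and 56.9, 56.7 and 57.4% in mutants, so the mutant libraries were all higher in EOM and all lower in trunk.

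**Figure D5:**
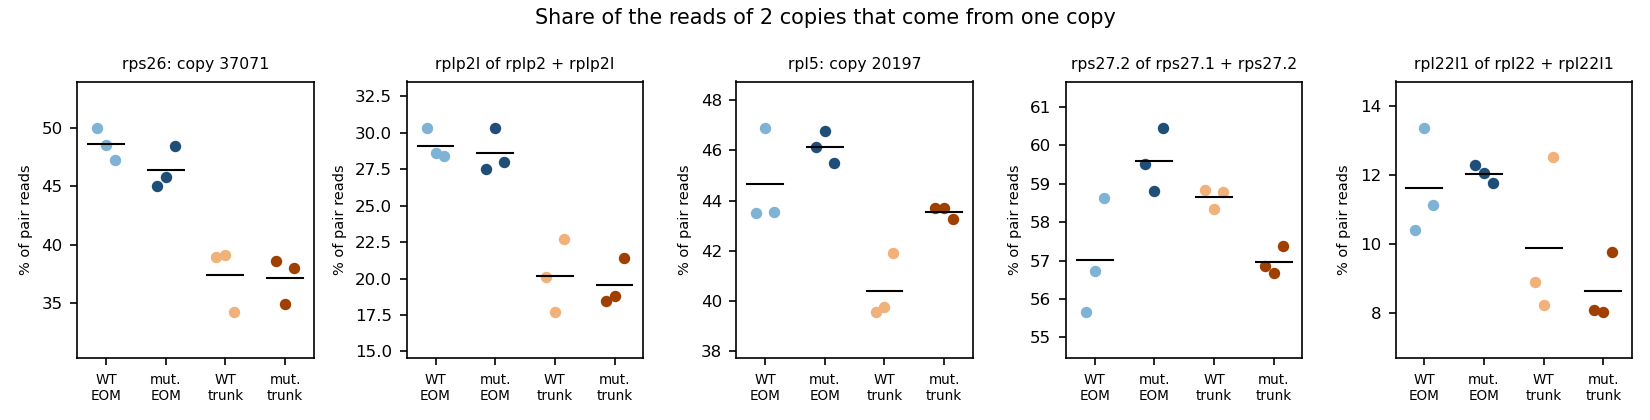
Each panel is 1 pair of copies, each point 1 library and each line a group mean (n = 3), with the share of the pair's reads from the named copy on the vertical axis in percent. Axes do not start at 0. The EOM and trunk groups separate within each genotype in the panels of rps26, rplp2 and rpl5, whereas those of rpl22 overlap in WT.

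Other genes of translation were read from fixed lists. Among proteins of the ribosome whose symbols fall outside the naming rule, fau, whose product carries a small subunit protein, was higher in EOM of WT fish (0.50 in log2, SE 0.17, edgeR adjusted p = 0.0335). This gene was called in 1 of the 6 fits that leave out 1 library. The scaffold protein gene rack1 was at 1260.2 ± 135 CPM in WT EOM and 1262 ± 132 in WT trunk (SD, n = 3). In mutant against WT trunk, rack1 had 0.26 and fau 0.22, and neither was called.

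Of 65 identifiers for ribosome biogenesis factors, 2 were higher and 39 lower in EOM of WT fish compared with their trunk (25.6% of all genes were called higher and 23.2% lower), with a median log2 fold change of -0.64. With library totals the counts were 6 higher and 18 lower, with no share of all genes to set beside them, and the median was -0.05. Relative to the median of all genes the list stood at -0.70 on the TMM scale and -0.71 with library totals. Among them were npm1a, a nucleolar chaperone of ribosome assembly (-1.62, SE 0.18, edgeR adjusted p = 0.000147), and nop58, a core protein of the box C/D particles that methylate ribosomal RNA (-1.45, SE 0.21, edgeR adjusted p = 0.000603). Of 13 RNA polymerase I identifiers 1 was higher and 6 lower, of 37 for initiation factors 2 and 14, and of 22 for mTORC1 and the control of pyrimidine-tract messenger RNAs 2 and 12, among the latter larp1, which binds the 5′ end of these messenger RNAs (-1.42, SE 0.17, edgeR adjusted p = 0.000241). Of 75 mitochondrial ribosomal protein identifiers 0 were higher and 14 lower, with a median of -0.26. With library totals, more identifiers of the RNA polymerase I, initiation factor and mitochondrial lists were called higher than lower, without the share of all genes beside it. On that scale the median of all genes was 0.66 in place of 0.06. The balance of higher and lower calls on those lists therefore changes with the scale, and the counts do not place the lists relative to other genes. The single genes npm1a, nop58 and larp1 were called lower in all 9 alternative fits, library totals among them.

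In mutant against WT trunk, 0 of 65 ribosome biogenesis identifiers were higher and 4 lower (4.76 and 3.63% of all genes), with a median of -0.19 and nop58 among those that fell (-0.70, SE 0.17, edgeR adjusted p = 0.0279). Of 12 elongation factor identifiers 2 were higher and 0 lower, with a median of 0.31. The 2 were eef2a.1, for the factor that moves the ribosome along the messenger RNA (0.91, SE 0.19, edgeR adjusted p = 0.0160), and eef1d, for a subunit of the exchange factor that recharges elongation factor 1 (0.71, SE 0.14, edgeR adjusted p = 0.0138). These calls depended on single libraries. The gene nop58 was called in 2 of the 6 fits that leave out 1 library, those without WT trunk library 3 or mutant trunk library 3 (edgeR adjusted p up to 0.135 in the others), and missed the threshold with library totals in place of TMM factors (edgeR adjusted p = 0.0513). The gene eef2a.1 was called in 2 of the 6, those without WT trunk library 2 or 3 (edgeR adjusted p up to 0.0683 in the others), and eef1d in 4, all but those without mutant trunk library 1 or 2 (up to 0.0632). Of 37 initiation factor identifiers 1 was higher, of 13 for RNA polymerase I 0 were called, of 22 for mTORC1 and pyrimidine-tract control 3 were lower and of 74 mitochondrial ribosomal protein identifiers 2 were lower. In mutant against WT EOM, 0 of the identifiers on these lists were called except 1 lower on the mTORC1 list. The median of the mitochondrial ribosomal protein genes was -0.26, beside -0.02 for all genes. Their summed levels overlapped, at 1813, 1958 and 2972 CPM in WT EOM and 1554, 1980 and 2006 CPM in mutant EOM, each in rising order. The middle libraries were thus close, and 1 WT EOM library was far above the rest.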

How the data were processed

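Poly-A RNA from 12 libraries was sequenced with a stranded kit, per the labels' protocols; the submitters' processing notes name STAR, DESeq2 and the GRCz11 genome. The authors deposited 1 table per library with raw read counts per gene. The sense column was used, since the opposite strand held 2.77 to 3.21% of stranded gene reads; the 4 tally rows stayed out of library sizes, with 9.96 to 11.4% of reads tallied as multimapping, 7.93 to 14.3% unmapped, 5.93 to 9.57% in no gene and 1.34 to 1.59% ambiguous. Of 32520 identifiers, 29201 had a symbol in the gene name table.

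Each comparison was fitted to the whole table with edgeR 4.0.16 (R 4.3.3; TMM, filterByExpr, robust quasi-likelihood test, Benjamini-Hochberg adjustment, threshold 0.05) on its own 6 libraries, or on all 12 for the difference between tissues. SE is the log2 fold change divided by the square root of F. For departures, library sizes were the summed reads of the ribosomal protein genes. Alternatives were DESeq2 1.42.0, other scalings and filters, either-strand counts, a replicate block, 1 fit of all libraries, and leaving out each library; fits were tested on simulated data. Wilson intervals used scipy 1.17.1, and permutation tests went through every arrangement with numpy 2.4.6. Genes were named by a rule: called genes with the 5 largest and 5 smallest changes, fixed members, and the strongest departures, plus a few genes of the pathway lists chosen after their values were seen. A few genes are not reported here; they stay in the fits and in counts over all ribosomal protein genes, and out of the plots of single genes. The genes, lists and markers were chosen with earlier results of these data known. The symbols rpl3l and rps4x were not found in the name table. Libraries within a group differed by more than counting noise (chi-square per degree of freedom 32.0 to 113).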

Additional observations from a re-analysis of the deposited data

Results flagged for a closer look

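The share of rps27 reads that came from rps27.2 differed between mutants and WT in opposite directions in the 2 tissues. It was 57.0 ± 1.51% in WT EOM and 59.6 ± 0.824% in mutant EOM, and 58.7 ± 0.270% in WT trunk and 57.0 ± 0.366% in mutant trunk (SD, n = 3), so mutants were higher by 2.59 percentage points in EOM and lower in trunk (-1.67). The difference between these effects was 4.26 percentage points. Permuting the genotype labels within each tissue over all 400 arrangements gave a two-sided p of 0.005, the smallest these arrangements can give. After Benjamini-Hochberg adjustment over the 8 pairs of copies, this permutation p was 0.04. The permutation is exact for no genotype effect in either tissue, and not for equal effects in the 2 tissues. The complete separation in opposite directions had been seen before the test was run, which fixed the smallest p in advance. The pairs were also chosen with values in view, so this p is not independent evidence. The levels of rps27.1 and rps27.2 themselves were not called in mutant against WT fish in either tissue.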

How the results depend on the processing

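The tissue comparisons depended on the scaling and on single libraries. With library totals in place of TMM factors, 81 genes were called and the median was 1.00 between WT EOM and WT trunk. Between mutant EOM and mutant trunk these values were 80 and 0.83. TMM treats the shift of the bulk of genes as composition and library totals do not, and the median of all genes moved with it. The share of all genes called with library totals is not given here. On that scale rplp0 (0.20), rps2 (0.47) and rpl7l1 (0.22) in WT and rplp0 (0.0504), rps2 (0.21) and rps27l (0.23) in mutants reversed. Without the 31 most abundant genes the shares of reads were 14.6, 14.9, 9.86 and 11.7% in WT EOM, mutant EOM, WT trunk and mutant trunk. DESeq2 called 3 genes in trunk between genotypes, and the fit of all 12 libraries called 7 between mutant EOM and mutant trunk. The share of all genes called in these fits is not given here, and the cause was not tested. The other scalings, filters and the either-strand count kept the number of calls of each comparison within 1.5 times and each median within the spread of its replicates.

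Leaving out 1 library at a time gave 12 to 40 calls between WT EOM and WT trunk and 6 to 26 between mutant EOM and mutant trunk. It left 3 to 9 departures from the common level. These fits have fewer libraries, and the share of all genes called in them is not given here. In mutant against WT trunk, rpl7l1 ranged from -0.27 to 0.0493.

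The deviations of libraries with the same number in different groups had correlations from -0.37 to 0.51. With 3 libraries per group these values cannot tell whether equal numbers are paired, and the reported fits treat the libraries as unpaired. With the replicate block, departures fell to 6, all of them among the 10 reported. Calls were 34 between WT EOM and WT trunk, 17 between mutant EOM and mutant trunk and 0 elsewhere. The share of all genes called with the block is not given here. Of the 85 genes, 83 had at least 295 reads in every library, whereas rpl26 and rpl9, with 0 to 24 reads, allow no statement.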
